A study of Mus musculus with 576 samples.

Results

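The genes described are 10 Wnt ligands of the embryonic pancreas (Wnt2, Wnt2b, Wnt4, Wnt5a, Wnt5b, Wnt6, Wnt7b, Wnt9a, Wnt11 and Wnt16), chosen by symbol in all 3 count tables, out of 36658 genes listed. Dorsal pancreata were dissected from mouse embryos at day 12.5 of development, and single cells were sorted for GFP. Nkx2.5-Cre;mTmG embryos (the Nkx2.5 line) and Nkx3.2-Cre;mTmG embryos (the Nkx3.2 line) carry a reporter allele that makes GFP in every cell that has expressed the Cre driver and in its descendants. Prox1-GFP embryos (Prox1 line) carry a transgene that makes GFP where Prox1 is active. No embryo was treated, GFP-negative cells were not sampled, and no ligand source outside the GFP+ cells can be seen here. Each line filled 2 plates of 96 wells (6A and 6B for Nkx2.5, 7A and 7B for Nkx3.2, 8A and 8B for Prox1). Since no label names an animal, a line counts as 1 sample whatever its number of cells, and no p-value was computed. Since each line had its own plates, an effect of the plates and an effect of the line cannot be told apart between lines. Library numbers of the Prox1 cells also form a range of their own. An effect of library preparation, if any, cannot be told apart from their line either.

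Wnt ligands are secreted, lipid-modified proteins that act over short distances. Porcn adds the lipid and Wls carries the ligand to the cell surface, where it meets Frizzled receptors. With Lrp5 or Lrp6 as co-receptor a ligand can stabilise β-catenin and turn on targets such as Axin2 and Lef1, and with Ror1 or Ror2 it can act on cell shape and movement without β-catenin. In the developing pancreas, where epithelium, mesenchyme and a covering mesothelium lie side by side, the cell that makes a ligand bears on which neighbours can receive it.

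Of 576 wells, 549 passed the cell filters, with 224813 to 1512736 counts per cell. All 3 lines were deep, with median counts per cell of 1056673 (Nkx2.5), 896115 (Nkx3.2) and 808005 (Prox1). Marker lists split the cells into epithelium, all of the Prox1 line, 413 mesenchymal cells (77 of Prox1 and equal numbers of Nkx2.5 and Nkx3.2) and 28 mesothelium-like cells (5 of Nkx2.5 and 23 of Nkx3.2). A further 3 Prox1 cells belonged to neither compartment. The 6 epithelial markers summed to 2458 counts per 1000000 counts (CPM) in epithelium and 0.961 CPM in mesenchyme, and the 5 mesothelial markers to 1466 CPM in mesothelium-like cells and 1.79 CPM in mesenchyme. The epithelium held 1 endocrine-like cluster of 17 cells, led by Gcg and Pyy, and 88 other cells. The 5 immune markers summed to 0.537 to 0.629 CPM in the 4 classes. The 5 endothelial markers summed to 32.9 to 53.5 CPM, most of it Pecam1 (32.7 to 46.3 CPM), with Kdr at 7.19 CPM in mesothelium-like cells and 5.08 CPM in mesenchyme and Cdh5 at 0 in all classes. The part of endothelial RNA in the ligand levels was not tested. Ligand genes and the other Wnt pathway genes took no part in the clustering.

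The 4 cell classes differed in the ligand with the largest share of their Wnt mRNA: Wnt7b in epithelium outside the endocrine-like cells, Wnt4 in endocrine-like cells, Wnt9a in mesothelium-like cells and Wnt5a in mesenchyme. Since long transcripts give more reads, ligands were compared with each other per kilobase of exon. On that scale Wnt7b made up 71.99% of the mRNA of all 19 mouse Wnt ligand genes in the other epithelium, Wnt4 74.4% in endocrine-like cells, Wnt9a 46.96% in mesothelium-like cells and Wnt5a 78.6% in mesenchyme. The summed level of all 19 ligands was 37.1 CPM per kb in mesenchyme, 28.5 in mesothelium-like cells, 16.9 in other epithelium and 11.5 in endocrine-like cells.

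**Figure D1:**
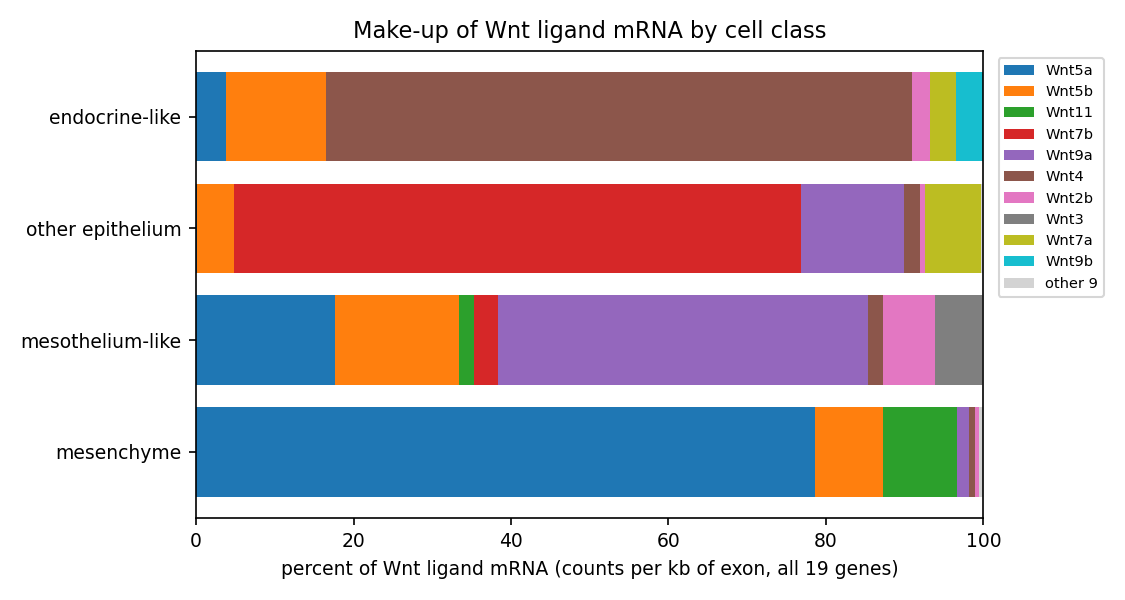
Make-up of Wnt ligand mRNA in each cell class, in percent of the counts per kb of exon over all 19 mouse Wnt ligand genes. Bars are 17 endocrine-like, 88 other epithelial, 28 mesothelium-like and 413 mesenchymal cells, and the leading ligand differs in each: Wnt4 (74.4%), Wnt7b (71.99%), Wnt9a (46.96%) and Wnt5a (78.6%).

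RefSeq promoter windows on GRCm38.p6 were found for 8 of the 10 ligands; Wnt5a and Wnt7b had no entry. The sequences of Wnt9a, Wnt4 and Wnt11 are shown because their levels separate the mesothelium-like, the endocrine-like and the mesenchymal cells from other classes. They run 5′ to 3′ from 250 bases before the RefSeq start and stop before the first exon base that GENCODE M21 annotates. Capitals mark matches on either strand to any of 4 motifs: TATAA, the core of a TATA box, the sequence CCAAT, the GC box GGGCGG, and CTTTGAT, which TCF and LEF factors bind. Overlapping matches run together.
Wnt9a (chr11:59306680-59306927, plus strand): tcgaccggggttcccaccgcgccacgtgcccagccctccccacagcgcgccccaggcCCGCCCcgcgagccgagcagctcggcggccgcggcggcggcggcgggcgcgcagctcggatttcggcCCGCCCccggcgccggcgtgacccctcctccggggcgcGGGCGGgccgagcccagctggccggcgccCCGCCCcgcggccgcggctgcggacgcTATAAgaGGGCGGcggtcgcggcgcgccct
Wnt4 (chr4:137277385-137277488, plus strand): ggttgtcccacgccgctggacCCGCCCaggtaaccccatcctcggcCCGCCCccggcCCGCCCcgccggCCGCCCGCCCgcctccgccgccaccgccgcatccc
Wnt11 (chr7:98834862-98835111, plus strand): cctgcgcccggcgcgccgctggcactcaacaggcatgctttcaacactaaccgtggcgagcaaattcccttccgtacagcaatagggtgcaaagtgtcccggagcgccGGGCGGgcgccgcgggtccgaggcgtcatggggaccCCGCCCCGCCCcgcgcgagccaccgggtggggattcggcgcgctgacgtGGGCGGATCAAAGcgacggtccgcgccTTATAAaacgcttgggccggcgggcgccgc
A match to TATAA lies 32 to 28 bases before the Wnt9a start, and overlapping matches on both strands lie within 30 to 25 bases before the Wnt11 start shown. RefSeq lists another Wnt11 start (chr7:98838595-98838844, plus strand), whose window holds none of the 4 motifs and 56.8% G and C. TATAA occurs in 22.8% of all 32851 windows of 250 bases. CTTTGAT is 51 to 45 bases before the Wnt11 start on the minus strand, and occurs in 3.21% of all windows. The GC box occurs in 32.7% of windows, and CCAAT is found in 33.8%. The Wnt9a, Wnt4 and Wnt11 windows of 250 bases hold 84.4%, 85.2% and 70.8% G and C, against a median of 52.4% over all windows. These matches describe the letters only.

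The plot of levels by class and line gives all 10 ligands. Wnt2, a ligand known from lung mesenchyme, was at 0 counts in all 549 cells, which allows up to 0.00605 CPM (3 counts over all cells). Per kilobase of exon the highest level was that of Wnt5a in Nkx3.2 mesenchyme, at 34.9 CPM per kb.

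**Figure D2:**
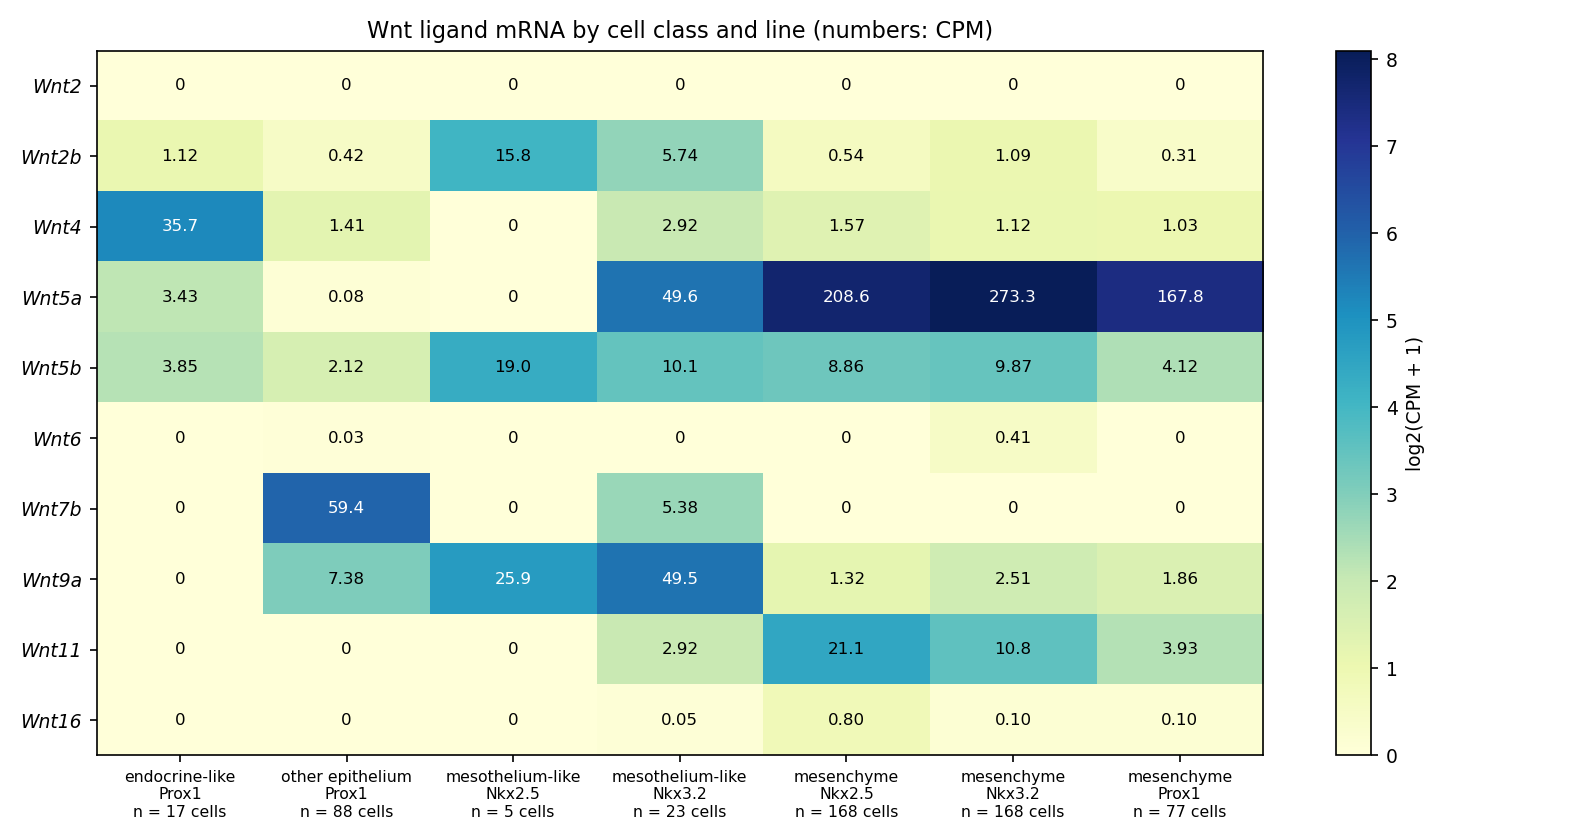
Level of each ligand (rows) by cell class and line (columns), as CPM after summing the counts of a column; the colour is log2(CPM + 1) and the number is the CPM. Wnt7b stands out in the other epithelium (59.4 CPM), Wnt4 in endocrine-like cells (35.7 CPM), Wnt9a in mesothelium-like cells (25.9 and 49.5 CPM) and Wnt5a in mesenchyme (167.8 to 273.3 CPM).

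The first comparison asked which ligands epithelium and mesenchyme make when both come from the same line and plates. In the Prox1 line Wnt7b and Wnt4 were higher in epithelium, and Wnt5a was higher in mesenchyme. A gene was called where it differed at least 2-fold in the same direction on both plates and reached 5 CPM on the higher side, with a group at 0 set to 3 counts. Of the 4 ligands that reached 5 CPM, 2 were called higher in epithelium, against 14.2% of all genes at 5 CPM, and 1 was called higher in mesenchyme, against 10.4%. The fourth, Wnt9a, was not called. The median log2 ratio of these 4 was 2.24, against 0.02 over all genes at 5 CPM. It lies between Wnt4 (2.75) and the uncalled Wnt9a (1.73). Wnt11 stayed under 5 CPM and is not among the 4, at -6.86 with epithelium set to 3 counts. No lean of the ligands to a side is read from this median.

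Wnt7b (chr15:85535437-85582473, minus strand), a ligand made by many branching epithelia, was an epithelial transcript with a sharp boundary. It had 74.4 CPM in epithelium on plate 8A (95% Poisson interval 71.9 to 76.9) and 23.02 CPM on plate 8B (21.6 to 24.5). In mesenchyme it had 0 counts on both plates and in all 413 cells of the 3 lines, which allows up to 0.00788 CPM (3 counts) and a share of cells with a count of up to 0.726% (3 cells). The ratio was at least 979.8-fold over both plates (590.4 on 8A and 269.8 on 8B), with mesenchyme set to 3 counts over the group. The direction was the same on both plates, but the intervals of the epithelial levels did not overlap and 8B was the lower.

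Within epithelium Wnt7b stopped at the endocrine-like cells. None of the 17 endocrine-like cells held a Wnt7b count, which allows up to 0.21 CPM (3 counts) and a share of cells with a count of up to 17.6% (3 cells), whereas 59.1% of the 88 other epithelial cells did (exact 95% binomial interval 48.1% to 69.5%). Thinned to 100000 counts per cell, the share in other epithelium was 51.1%. The level in other epithelium was 59.4 CPM (57.7 to 61.2), at least 283.2-fold above the endocrine-like cells, and at least 169.6-fold on plate 8A and 79.7-fold on plate 8B. All 7 other epithelial clusters held it, with 27.6 CPM in the lowest, a cluster of 11 cells, and 69.4 CPM in the largest, an S-phase cluster of 25 cells. Expression was uneven from cell to cell: the lower quartile of other epithelial cells was at 0, the median at 16.1 CPM and the highest cell at 319.1 CPM.

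Wnt4 (chr4:137277489-137299726, plus strand), a ligand known from kidney, gonad and islet development, showed the reverse pattern within epithelium. The endocrine-like cells had 35.7 CPM (32.7 to 38.97) and the other epithelial cells 1.41 CPM, a ratio of 25.3. The ratio was 39.5 on plate 8A, with 8 endocrine-like cells, and 18.4 on plate 8B, with 9. In the endocrine-like cells the lowest value was 0, the median 17.98 CPM and the highest 141.7 CPM, and 10 of 17 cells held at least 5 counts, against 2 of 88 other epithelial cells. The single highest endocrine-like cell held 25.05% of the class's Wnt4 counts, so the level did not rest on it alone.

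Over the whole epithelium Wnt4 had 4.28 CPM against 0.63 CPM in mesenchyme on plate 8A, a ratio of 6.79, and 9.89 against 1.28 CPM on plate 8B, a ratio of 7.73. Without plate 8B the call was lost, because the level on 8A stayed under 5 CPM, while the ratio kept its direction. The call rested on the endocrine-like cells. Other epithelium had 0.719 CPM on 8A and 2.23 CPM on 8B, each less than 2-fold above mesenchyme. Low Wnt4 counts were spread over all classes: 30.99% of mesenchymal cells held at least 1 count but 4.84% held 5 or more. A share at 1 count is therefore close to that in other epithelium (28.4%) and was not read as expression, whereas at 5 counts the endocrine-like cells stood apart at 58.8%.

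Wnt9a (chr11:59306928-59333552, plus strand), a ligand known from joint formation, came from 3 of the 88 other epithelial cells and from no endocrine-like cell. These held 227, 120 and 202 counts (285.9, 179.8 and 218.6 CPM) and all 3 fell in a cluster of 19 cells led by Neurog3, the transcription factor that starts endocrine differentiation. Wnt9a was itself among the 10 genes that led this cluster. The same 3 cells held 2104, 1137 and 2039 CPM of Neurog3 and no Wnt7b count. With a limit of 1000 CPM of Neurog3, chosen after these values were seen, 3 of 4 epithelial cells above it held Wnt9a, and 0 of the 84 cells below it outside the endocrine-like cluster did.

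The 4 cells above that limit held no Wnt7b count (up to 0.936 CPM), whereas 49 of the 84 others held 5 or more, at 62.1 CPM. Of these 4 cells, 3 are the Wnt9a cells, already seen to lack Wnt7b when the limit was set. The values are therefore a description and not a separate comparison. A milder limit of 5 Neurog3 counts, also outside the endocrine-like cluster, gave 7 of 19 cells with Wnt7b (36.8%, interval 16.3% to 61.6%) against 42 of 69 cells below it (60.9%, 48.4% to 72.4%). Those intervals overlapped. Over the whole epithelium Wnt9a was not called against mesenchyme, with 7.49 against 4.62 CPM on plate 8A and 4.77 CPM against 0 counts on plate 8B. Its direction was not stable, since the log2 ratio over both plates was 1.73 but -0.45 when all cells were clustered at once.

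**Figure D3:**
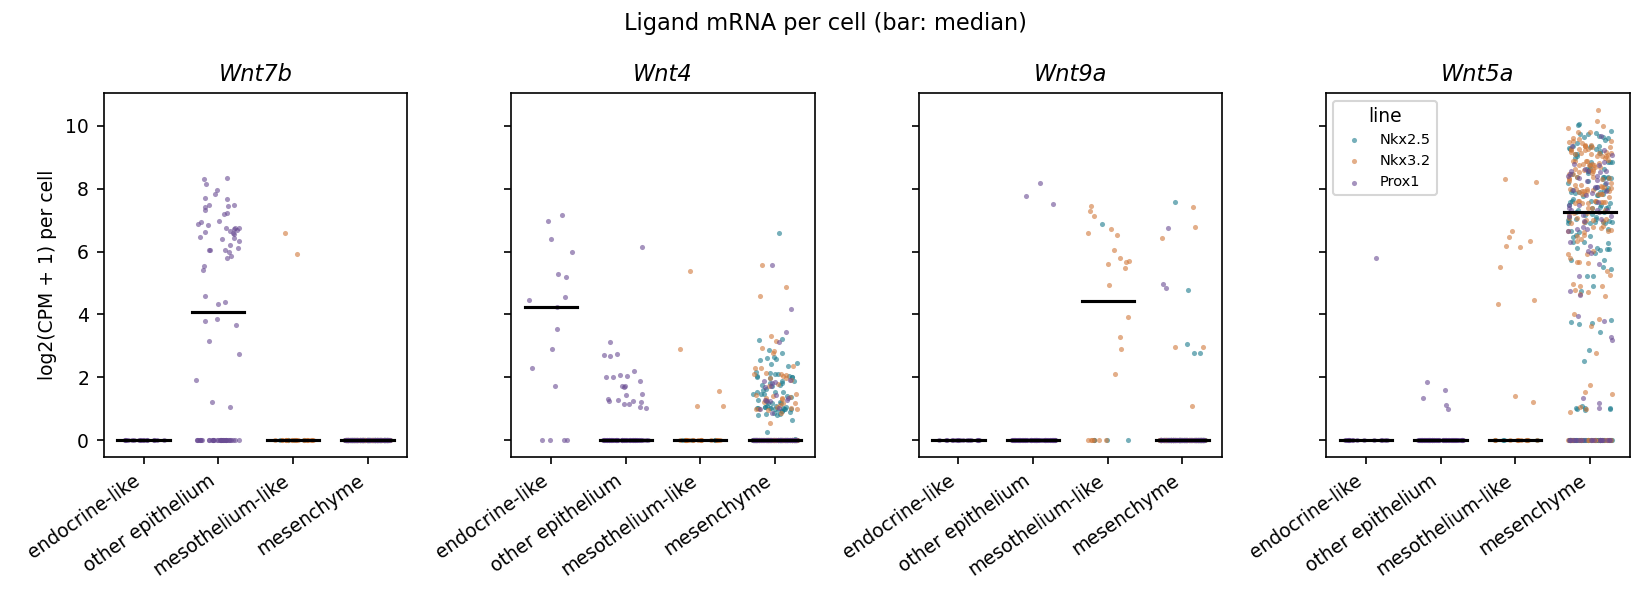
Level of Wnt7b, Wnt4, Wnt9a and Wnt5a in each cell, as log2(CPM + 1), by class; points are cells, coloured by line, and black bars are medians over cells. Wnt7b is at 0 in every mesenchymal and endocrine-like cell, Wnt4 rises above its low scatter in endocrine-like cells, Wnt9a has its highest median in mesothelium-like cells (21.98 CPM) and Wnt5a in mesenchyme (152.5 CPM).

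Wnt5a (chr14:28504750-28527448, plus strand), a ligand best known for signalling through Ror receptors without β-catenin, was the mesenchymal ligand. In the Prox1 line it had 197.3 CPM in mesenchyme against 1.10 CPM in epithelium on plate 8A, and 147.8 against 0.0944 CPM on plate 8B, a ratio of 270.5 over both plates. The log2 ratio of epithelium over mesenchyme was -8.08, and -6.47 when all cells were clustered at once. Of the 55 epithelial counts, 89.1% lay in 1 endocrine-like cell, which held 54.7 CPM of Wnt5a beside 49900 CPM of Gcg and 3.35 CPM of Col1a1. Outside the endocrine-like cells no epithelial cell exceeded 2.57 CPM.

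Wnt11 (chr7:98835112-98855195, plus strand), a ligand of cell movement in early embryos, was not detected in epithelium, with 0 counts in every cell (up to 0.0338 CPM). In Prox1 mesenchyme it had 3.61 CPM on 8A and 4.15 CPM on 8B, at least 55.7-fold and 58.6-fold higher, but under the 5 CPM needed for a call. Wnt5b (chr6:119432531-119544347, minus strand), the close relative of Wnt5a, did not follow it: Prox1 mesenchyme had 10.2 CPM on 8A and 0 counts on 8B, and epithelium had 3.41 and 1.30 CPM. Only 3 Prox1 mesenchymal cells carried these Wnt5b counts.

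Mesothelium, the layer that covers the organ, was compared with mesenchyme within the 2 lines that held at least 5 such cells. Wnt9a and Wnt2b were higher in mesothelium-like cells, and Wnt5a and Wnt11 were lower. Of 5 ligands at 5 CPM or more, 2 were called higher, against 5.73% of all genes, and 2 lower, against 10%. Their median log2 ratio was 0.36, against -0.01 over all genes. That median is the value of Wnt5b, which was not called and whose sign was not stable, so it does not describe the group. In the Nkx2.5 line there were only 5 mesothelium-like cells, 3 on plate 6A and 2 on 6B, and in the Nkx3.2 line 20 of 23 came from plate 7B.

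Wnt9a had 49.5 CPM (46.4 to 52.8) in Nkx3.2 mesothelium-like cells and 2.51 CPM in Nkx3.2 mesenchyme, a ratio of 19.7. Both plates gave like values, 47.6 CPM on 7A and 49.98 CPM on 7B. Of the 23 cells, 73.9% held a Wnt9a count (51.6% to 89.8%) and the median cell had 43.9 CPM, against 3.57% of cells in the mesenchyme of the same line. In the Nkx2.5 line the ratio was 19.5 (25.9 against 1.32 CPM), but 1 of 5 cells, at 116.4 CPM, carried all of it. Leaving out the highest cell of each group therefore left no ligand called higher in mesothelium. The Nkx3.2 values did not rest on such a cell, since the highest held 16.7% of the counts.

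Wnt2b (chr3:104945272-104961921, minus strand), a ligand known from liver and gut mesoderm, was rarer. It had 5.74 CPM in Nkx3.2 mesothelium-like cells and 1.09 CPM in mesenchyme, a ratio of 5.28, and in the Nkx2.5 line 15.8 against 0.543 CPM, a ratio of 29.1. It was not particular to mesothelium-like cells in the Nkx3.2 line. The 29 Nkx3.2 cells of mesenchymal cluster M4 had 5.82 CPM, against 0.182 CPM in the other Nkx3.2 mesenchyme. Across both lines 4 of 28 cells held at least 5 counts, and single cells held 58.2% of the Nkx3.2 counts and 95% of those in Nkx2.5. At that limit 16 cells held Wnt9a and 4 held Wnt2b, and 1 cell held both (6.25% of the Wnt9a cells and 25% of the Wnt2b cells, where 14.3% and 57.1% of all 28 cells held Wnt2b and Wnt9a).

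Wnt5a fell from 273.3 CPM in Nkx3.2 mesenchyme to 49.6 CPM in the mesothelium-like cells of that line, a ratio of 5.51. In the Nkx2.5 line it went from 208.6 CPM to 0 counts in 5 cells, at least 351.8-fold lower. Of the 28 mesothelium-like cells 10 held at least 5 Wnt5a counts, all of the Nkx3.2 line. Wnt11 had 2.92 against 10.8 CPM in the Nkx3.2 line, 3.70-fold lower, and 0 counts against 21.1 CPM among Nkx2.5 cells, at least 35.5-fold lower. Wnt5b was not called: it had 10.1 against 9.87 CPM in the Nkx3.2 line, and its 18.97 CPM in the Nkx2.5 line came from 1 cell.

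Wnt7b appeared in 2 mesothelium-like cells of plate 7B (58 and 45 counts), while all mesenchymal cells lacked it. Both held the mesothelial marker Upk3b, at 480.6 and 915.5 CPM, and 0 counts of the epithelial marker Epcam, although Epcam reached 23.7 CPM over the mesothelium-like class. Wnt7b was at 0 in the 5 Nkx2.5 cells, and so it was not called. Without either of the plates 6A and 6B, which left the Nkx3.2 line alone, Wnt7b was called higher as well, and without plate 7B, which left the Nkx2.5 line alone, Wnt5b was.

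Among the 9 other Wnt ligand genes, Wnt3 alone reached 5 CPM in the pooled mesothelium-like cells, with 5.33 CPM from 3 cells holding 5 counts or more, 50.4% of it in 1 cell. Mesenchyme had 0.0761 CPM of it, and epithelium 0 counts.

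The mesenchyme of the Nkx2.5 and Nkx3.2 lines was compared to ask whether descendants of the 2 Cre drivers make different ligands. No ligand differed 2-fold in all 4 pairs of plates, where 1.51% of all genes at 5 CPM were called higher in the Nkx2.5 line and 2.39% higher in the Nkx3.2 line. Of the 10 ligands, 3 reached 5 CPM (Wnt5a, Wnt5b and Wnt11), with a median log2 ratio of -0.16 against 0.01 over all genes. That median is the value of Wnt5b, whose sign was not stable. With no replicate animals these values compare the sorted cells of 4 plates. The lines also differed in the clusters that held most of their cells: M1, M2 and M0 held 57, 36 and 33 of the Nkx2.5 cells, and M3, M5 and M4 held 38, 30 and 29 of the Nkx3.2 cells.

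Wnt5a had 218.5 and 197.9 CPM on plates 6A and 6B and 263.1 and 289.2 CPM on plates 7A and 7B. Every Nkx3.2 plate was above every Nkx2.5 plate, by 1.20 to 1.46-fold, less than the fold asked for. In Prox1 mesenchyme it had 197.3 and 147.8 CPM. The share of cells with a Wnt5a count was 76.8% in Nkx2.5, 88.1% in Nkx3.2 and 74.03% in Prox1 mesenchyme, and after thinning to 100000 counts 70.2%, 83.9% and 66.2%.

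Wnt11 was ordered the other way. It had 23.4 and 18.6 CPM on plates 6A and 6B, 11.7 and 9.45 CPM on 7A and 7B, and 3.61 and 4.15 CPM on 8A and 8B, so the plates of the 3 lines did not overlap. The 4 ratios of Nkx2.5 over Nkx3.2 were 1.59 to 2.47, so Wnt11 was called at a 1.5-fold limit, and without plate 6B at the 2-fold limit. The level and the share of cells went in opposite directions, with 14.9% of Nkx2.5 cells and 23.2% of Nkx3.2 cells holding a count, so no order of the lines is read from the share. The highest Nkx2.5 cell had 333.1 CPM and the highest Nkx3.2 cell 138.7 CPM.

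Wnt5b gave no order of the lines. It had 11.9 and 5.62 CPM on 6A and 6B and 6.89 and 14.5 CPM on 7A and 7B, so the plates of a line differed by more than the lines did. It was found in 11.4% of all mesenchymal cells.

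**Figure D4:**
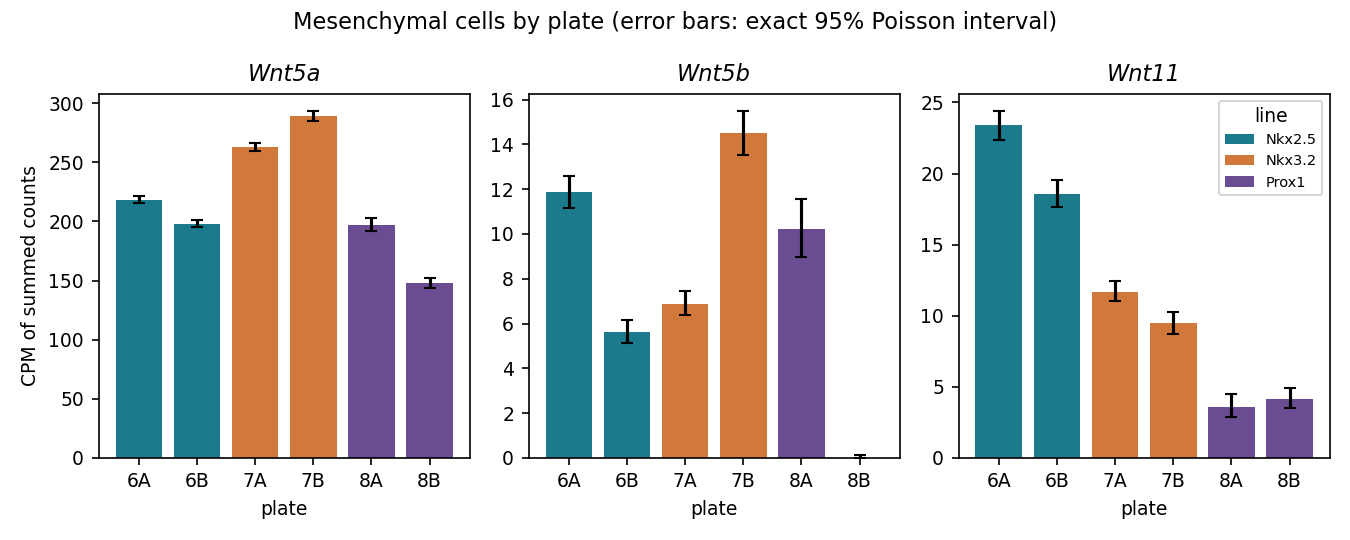
Level of Wnt5a, Wnt5b and Wnt11 in mesenchymal cells of each plate, as CPM of summed counts; bars are plates, coloured by line, and error bars are exact 95% Poisson intervals, which cover counting error only. Wnt11 steps down from Nkx2.5 (18.6 and 23.4 CPM) to Nkx3.2 (9.45 and 11.7 CPM) to Prox1 (3.61 and 4.15 CPM), whereas the Wnt5b plates of a line differ from each other.

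Across mesenchymal clusters Wnt5a varied widely. The clusters are numbered M0 to M9, and 4 of them took a name from the mesenchymal lists, besides the mesothelium-like M8. Wnt5a was highest in M3 (338.8 CPM) and M4 (321.4 CPM) and lowest in M9, which was M-SpP-like, the list for mesenchyme next to the spleen (85.2 CPM). Compared within a line, M9 was 2.14-fold below the other mesenchyme in the Nkx2.5 line (101.5 against 217.5 CPM) and 4.06-fold below among Nkx3.2 cells (71.3 against 289.6 CPM). Wnt11 was also low there, with 0.76 against 22.8 CPM (Nkx2.5) and 3.03 against 11.4 CPM (Nkx3.2). M9 held only 14 Nkx2.5 and 11 Nkx3.2 cells. Since a minority of mesenchymal cells held Wnt11, its sums in such small groups rest on few cells.

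Other clusters differed by line as much as by cluster. M4 had 399.8 CPM of Wnt5a in 29 Nkx3.2 cells but 134.7 CPM in 8 Nkx2.5 cells, and its Wnt11 ran the other way, with 8.17 and 53.3 CPM. M6, which was mural-like and led by Acta2 and Tagln, had 174.5 CPM of Wnt5a in 26 Nkx3.2 cells and 0.249 CPM in 5 Prox1 cells. M7, which was M-III-like, had 248.9 CPM in 6 Nkx3.2 cells and 94.2 CPM in 23 Prox1 cells, and no Wnt5b count in any of its 33 cells. Wnt5b was highest in M4 (23.2 CPM), all but a small part of it from the Nkx3.2 line (30.7 CPM), with 0 counts in its 8 Nkx2.5 cells. M5 was led by the globin genes Hba-a2 and Hbb-bs, and the part of blood RNA in its values was not tested.

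**Figure D5:**
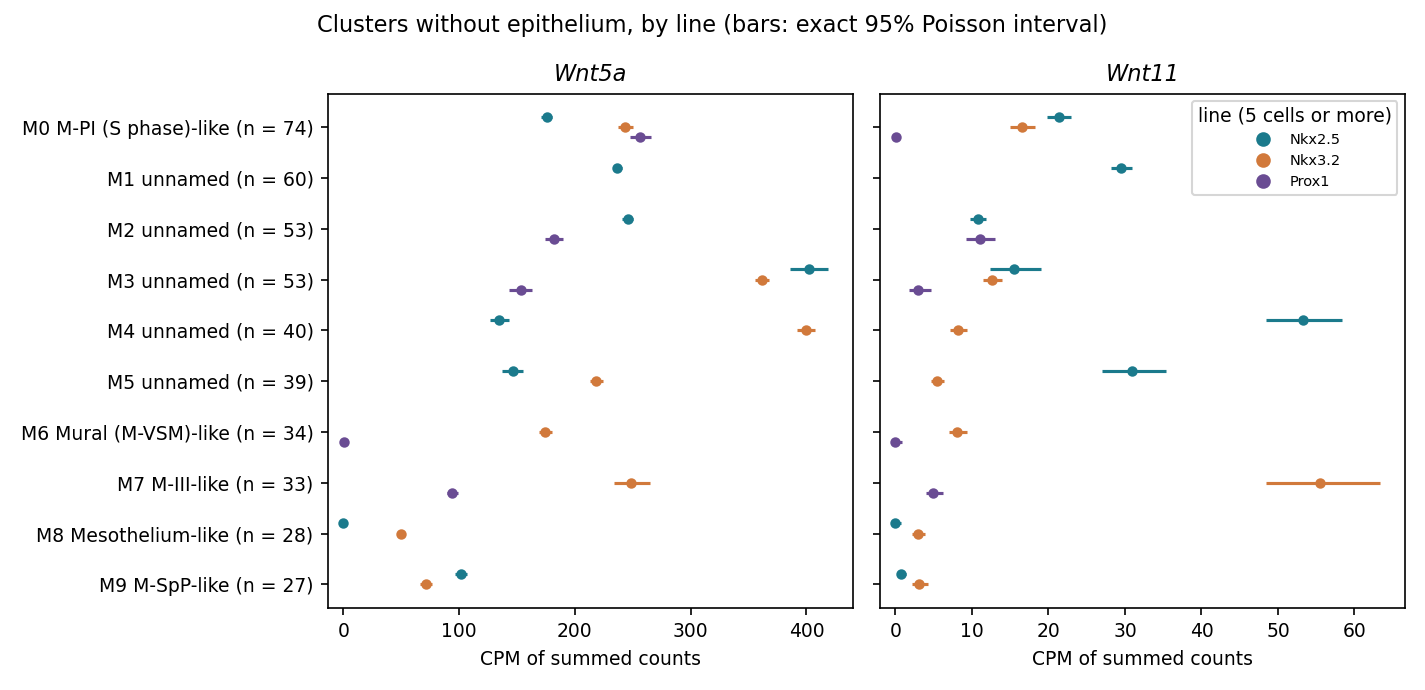
Level of Wnt5a and Wnt11 in each cluster outside the epithelium, as CPM of summed counts, by line where a line had at least 5 cells in the cluster; bars are exact 95% Poisson intervals. Wnt5a is low in mesothelium-like cells (0 and 49.6 CPM), in the 5 mural-like cells of the Prox1 line (0.249 CPM) and in M-SpP-like cells (71.3 and 101.5 CPM). Summed Wnt11 in M4 and M5 is higher in only 8 and 6 Nkx2.5 cells (53.3 and 30.9 CPM) than in 29 and 30 Nkx3.2 cells (8.17 and 5.44 CPM). The bars cover counting error only, not the spread between so few cells.

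Most mesenchymal cells held a single ligand. With at least 5 counts as the limit, 60.3% of mesenchymal cells held 1 of the 10 ligands, 21.1% held 2 and 15.01% held none. Of the 65 mesenchymal cells with Wnt11, 81.5% also held Wnt5a, against 76.8% of all mesenchymal cells, and of the 42 with Wnt5b, 80.95% did. Wnt11 and Wnt5b shared 8 cells, 12.3% of the Wnt11 cells and 19.05% of the Wnt5b cells. In the other epithelium all 4 cells with Wnt5b were also among the 49 with Wnt7b. Of the 28 mesothelium-like cells 6 held 2 ligands and 6 held 3.

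The remaining ligands were near the limit of detection. Wnt6 (chr1:74771892-74785322, plus strand) gave 61 counts in 1 Nkx3.2 mesenchymal cell and 2 counts in 1 epithelial cell. Wnt16 (chr6:22288227-22298522, plus strand) had 0.415 CPM in mesenchyme, 79.1% of it in 1 Nkx2.5 cell of plate 6B. Wnt2b outside the mesothelium-like cells was at 0.722 CPM in mesenchyme (5.82 CPM in the Nkx3.2 cells of M4) and 0.53 CPM in epithelium. No source can be given for these from single cells.

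Genes with the most similar pattern were sought over the 19 states of a line with at least 10 cells, by Pearson correlation of log2(CPM + 1) among 11733 genes that reached 20 CPM in a state. These states share libraries and depth, and the values are descriptions. For Wnt7b the 3 nearest were Rnf43, an inhibitor of Frizzled receptors (r = 0.997), Myo5c (0.981) and Esrp2, a splicing factor of epithelia (0.979). For Wnt5a they were Mmp2, a matrix protease (0.982), Tgfbi, a matrix protein (0.978), and Hand2, a transcription factor (0.978). Wnt4 was followed by Rbm24 (0.909), Rimbp2 (0.893) and Mrln (0.893), all highest in the endocrine-like cells. Wnt9a was nearest to Tspan8 (0.790), Wnt11 to Adcy3 (0.882) and Wnt5b to Gsn (0.826), none of these as close as the pairs of Wnt7b or Wnt5a.

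Of 40 other genes of the pathway, receptors, modulators and targets included, 29 reached 5 CPM in the Prox1 comparison, of which 6 were higher in epithelium and 14 in mesenchyme, where 14.2% and 10.4% of all genes were. The median log2 ratio of epithelium over mesenchyme was -1.47 for these 29, against 0.02 over all genes at 5 CPM. Higher in epithelium were Rnf43 (23.4 CPM, with 0 counts in mesenchyme, at least 459.2-fold) and Sfrp5, a secreted Wnt inhibitor (19.4 CPM, with 0 counts in mesenchyme, at least 382.3-fold). Higher in mesenchyme were Lef1, a transcription factor of the pathway (106.2 against 0.586 CPM, 181.1-fold), and Sfrp1, a secreted inhibitor (1004 against 7.25 CPM, 138.5-fold). In the comparison of Nkx2.5 and Nkx3.2 mesenchyme 1 of 25 was called, Znrf3, a relative of Rnf43, with 119.2 against 50.7 CPM. Over all genes 1.51% were called in that direction.

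In the mesothelium-like cells 3 of 29 pathway genes were higher and 5 lower than in mesenchyme, where 5.73% and 10% of all genes were, with a median log2 ratio of -0.47 against -0.01 over all genes. Rspo1, a secreted enhancer of Wnt signalling, had 14.9 against 0.696 CPM and the receptor Fzd4 79.1 against 6.84 CPM. Notum, which removes the lipid of Wnt ligands, had 0.206 against 15.01 CPM and Ror1 16.3 against 76.6 CPM. Wls, named after its values were seen because every ligand needs it, had 601.6 CPM in mesothelium-like cells, 241.3 CPM in mesenchyme, 28.8 CPM in other epithelium and 9.44 CPM in endocrine-like cells. Wls was thus higher where Wnt5a or Wnt9a led than where Wnt7b or Wnt4 did, by 7.27-fold between mesenchyme and epithelium of the Prox1 line. That grouping is also the split of epithelium from the other classes. Within the lines compared, Wls was 2.39-fold higher in mesothelium-like cells than in mesenchyme and was not called. Porcn, the other secretion gene listed, did not follow Wls. In the Prox1 line it had 5.93 CPM in epithelium and 2.09 CPM in mesenchyme, and it was not called.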

How the data were processed

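Single GFP+ cells were profiled by Smart-seq2, which reads whole transcripts without molecular identifiers. The deposited files hold expected counts per gene and cell, which the authors estimated with kallisto after adapter trimming with Trim Galore 0.6.5, on GRCm38 and with no normalization. Reads split between similar transcripts make such counts fractional, so they were summed and rounded to whole numbers. Wells with 1000 genes, 100000 counts and at most 30% mitochondrial counts were kept. Cells were split by marker lists (margin of 2 on the log2 scale) and clustered with Seurat 5.3.0 (R 4.3.3, 20 principal components, resolution 1.9), without the Wnt ligand and pathway genes. A cluster took a list's name at a score of 0.9 with a lead of 0.2 over the next list. No doublet caller was run.

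Levels are counts per 1000000 counts, from counts summed over cells (CPM). CPM intervals are exact 95% Poisson and shares exact 95% binomial (Clopper-Pearson), and both cover counting error only, since reads without molecular identifiers are not independent molecules. Passing cells held 224813 to 1512736 counts. The labels name no animals, so each line counted as 1 sample and no test was run. Calls needed a 2-fold difference in every plate pair (for mesothelium, in every line with 5 such cells) and 5 CPM on the higher side. Alternatives covered scaling (edgeR 4.0.16 TMM factors), filters, clustering, thinning, fold, minimum CPM, the highest cell and each plate left out. All 10 ligands are named, and up to 4 pathway genes per comparison by ratio. The members and lists were chosen with earlier results of these data known. The fold rule alone was tested on simulated data, with Poisson counts that lack the spread between cells. Gene positions are from GENCODE M21 and promoter sequences from RefSeq. Python 3.11.15, numpy 2.4.6, scipy 1.17.1, pandas 2.3.3 and matplotlib 3.10.9 were used.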

Additional observations from a re-analysis of the deposited data

Results flagged for a closer look

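The 3 Prox1 cells that fell in neither compartment took part in no comparison and still held ligand counts. A cell of plate 8B held 137.8 CPM of Wnt5a. Another cell of plate 8B held 15.8 CPM of Wnt10a, and the cell of plate 8A held neither gene. These were listed because they are signals outside the compared classes above the limit that a count of 0 allows. The immune markers summed to 43.9 CPM over all passing Prox1 cells, against 0.598 CPM in epithelium and 0.136 CPM in Prox1 mesenchyme. Most of the immune marker counts of the line therefore lay in the 3 cells of neither compartment. The identity of each of these cells was not tested.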

How the results depend on the processing

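Of 94 alternative counts of called ligands 86 stayed within 1.5 times the main count and 8 moved. Of 197 alternative ratios and shares of single ligands 54 moved by more than their counting interval. The sign turned in 6 of the ratios, none of them of a ligand called in that comparison: Wnt9a in epithelium over mesenchyme with all cells clustered at once (log2 1.73 to -0.45), Wnt5b in mesothelium (0.36) without the highest cells (-0.10) and after thinning (-0.20), and Wnt5b in Nkx2.5 over Nkx3.2 (-0.16) after thinning (0.07) and without 6B (0.27) or 7B (0.36). Among called ligands, the log2 ratio of Wnt5a in epithelium went from -8.08 to -6.47 with all cells clustered at once and to -11.19 without the highest cells. In mesothelium, leaving out plate 7B moved Wnt5a from -2.60 to -8.46, Wnt11 from -2.81 to -5.15 and Wnt2b from 3.30 to 4.86, and without 6A or 6B these last 2 were at -1.89 and 2.40. Leaving out 7B left the Nkx2.5 line alone, and leaving out 6A or 6B left the Nkx3.2 line alone. These mesothelium values are therefore the ratios of 1 line. The cause of the shifts in epithelium was not tested. Ligands higher in mesenchyme than in epithelium rose from 1 to 2, adding Wnt11, with the mean of cells' CPM, with cells thinned to 100000 counts and with no minimum CPM. With the highest cell of each group left out, 0 ligands were called higher in mesothelium. At a fold of 1.5, 1 ligand (Wnt11) was higher in Nkx2.5 than in Nkx3.2 mesenchyme. Leaving out 1 plate at a time gave 1 to 2 ligands higher in epithelium (Wnt4 lost without 8B), 1 to 2 higher in mesenchyme than in epithelium (Wnt5b added without 8B), 0 to 1 higher in Nkx2.5 (Wnt11 without 6B), 0 higher in Nkx3.2, 2 to 3 higher in mesothelium and 2 lower. The share of mesenchymal cells with Wnt4 fell from 30.99% at 1 count to 4.84% at 5 counts. No paired analysis was possible because no result comes from a test and the labels pair no samples. The single sample per line, the 5 Nkx2.5 mesothelium-like cells and the levels that rest on single cells limit these values, as does depth, since thinning changed a count.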
